A study of Mus musculus with 7 samples.

Results

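The regions described here are promoters of long noncoding RNA genes that lie away from protein-coding promoters in mouse liver. A region was taken when it overlapped the 200 bp on either side of a transcription start site (TSS) of a GENCODE M21 gene of type lincRNA, antisense, processed transcript, sense intronic or bidirectional promoter, and lay over 1000 bp from each TSS of a protein-coding gene. This gave 988 of 55680 accessible regions (1.77%), at 979 long noncoding genes. Another 1335 regions overlapped such a TSS but lay within 1000 bp of a protein-coding TSS and were left out. Long noncoding RNAs are made by RNA polymerase II and are often capped and spliced, but are not translated into known proteins. Some act in the nucleus, as scaffolds of nuclear bodies or as silencers of neighbouring genes, some carry small RNAs in their introns, and for many no function is known. An open promoter permits transcription but is no measure of the amount of RNA made.

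Chromatin accessibility was measured by ATAC-seq, in which a transposase inserts sequencing adapters into open DNA, in liver of male C57BL/6N mice. The young group held 3 samples from mice of 3 months, and the aged group held 4 samples from mice of 18 months. By the design text deposited with the samples, the aged samples came from 3 animals, with 2 lobules of 1 animal taken as separate samples, whereas the publication counts each aged sample as a mouse. The labels do not tell which samples the lobules are, and the p-values treat all 4 as separate. Total counts in regions were 10384725, 25461110 and 5709327 in young samples 1 to 3 and 11717992, 5108283, 4474652 and 8397956 in aged samples 1 to 4. The members took 2.087%, 2.076% and 2.152% of these counts in the young samples and 2.143%, 2.183%, 2.196% and 2.203% in the aged samples. The groups overlapped, as aged sample 1 was below young sample 3.

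The tissue label was checked at protein-coding promoters of cell type markers. All 8 hepatocyte markers had a region at their promoter, with Apoa1 the strongest. Summed over them, the level was 653, 729 and 722 CPM (counts scaled to a common library size) in young samples 1 to 3 and 803, 801, 928 and 866 CPM in aged samples 1 to 4. These sums also did not overlap between the groups. Apoa1 was the 1 hepatocyte marker that edgeR called higher in aged liver, with a log2 fold change of 0.53 (edgeR adjusted p = 0.0331). DESeq2 called 2 of the 8 and limma voom 1, and 4 had an unadjusted edgeR p under 0.05. Of 6 Kupffer cell markers, only Clec4f had a region, at 2.22, 2.65 and 2.30 CPM in the young and 1.41, 0.588, 2.80 and 1.53 CPM in the aged samples. None of the 6 lymphocyte and 3 neutrophil markers had one. Endothelial markers (4 of 6 with a region, Stab2 the strongest) summed to 67.5, 62.7 and 62.3 CPM in the young and 50.2, 50.2, 68.2 and 82.6 CPM in the aged samples. Stellate markers (3 of 6, Reln the strongest) summed to 29.1, 26.7 and 26.6 CPM in the young and 23.5, 16.1, 16.3 and 19.1 CPM in the aged samples, with no overlap between the groups. Cholangiocyte markers (2 of 5, Sox9 the strongest) summed to 48.5, 41.7 and 49.5 CPM in the young and 43.1, 36.7, 37.6 and 54.3 CPM in the aged samples. Among the Kupffer, endothelial, stellate and cholangiocyte markers edgeR called 0 regions, DESeq2 and limma voom also called 0, and Reln and Epcam had an unadjusted p under 0.05. The part of cell composition in the values below was not tested.

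By gene type, 583 members were at lincRNA genes, 261 at antisense genes, 127 at processed transcripts and 17 at sense intronic genes, while the 190 annotated genes with a bidirectional promoter gave 0 members. Most (747) lay between protein-coding genes, 205 lay inside a protein-coding gene on the opposite strand and 36 inside one on the same strand. The median distance to the nearest protein-coding TSS was 24872 bp. The members' median length was 1054 bp (range 194 to 6793 bp), between the 869 bp of all regions and the 1256 bp of the 13711 regions at protein-coding TSSs. Their base composition was also intermediate. The median GC content was 50.4% in members, 58.0% at protein-coding TSSs and 47.6% in the 40258 regions at no TSS. The ratio of observed to expected CpG was at least 0.6 in 16.6% of members, in 61.5% of protein-coding promoter regions and in 2.29% of regions at no TSS. Per kb of region, the median level was 12.3 CPM in members, 22.3 CPM at protein-coding promoters and 9.24 CPM at no TSS.

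Comparing aged with young liver asks which of these promoters open or close with age. Of 988 members, 44 (4.45%) were more accessible in aged liver at an edgeR adjusted p under 0.05, against 2.44% of all regions, and 25 (2.53%) were less accessible, against 3.30% of all regions. At protein-coding promoters the shares were 4.54% and 1.82%. Over all regions edgeR called 1360 higher and 1838 lower and limma voom 2197 and 2383, whereas DESeq2 called 2760 and 1931. The balance of the background thus differed between fits. The DESeq2 fit changed the scaling and the test together, and their parts in this turn were not tested. In members DESeq2 called 77 higher and 28 lower. The median log2 fold change (aged over young) was 0.044 in members, -0.035 in all regions, 0.10 at protein-coding promoters and -0.091 in regions at no TSS. Every aged sample was above every young one in 152 members (15.4%, against 10.2% of all regions), and every aged sample was below every young one in 89 members (9.01%, against 11.6%). In bulk tissue, a change in the number of cells with an open promoter and a change in accessibility per cell cannot be told apart.

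The split of calls rested on the scaling and on single libraries. It was 44 higher and 25 lower with TMM, 18 and 40 with total counts as library size, 8 and 15 with offsets from mean abundance, and 167 and 23 with offsets from GC content. Over all regions, with 1360 higher and 1838 lower with TMM, the counts were 543 and 2931 with total counts, 293 and 523 with abundance offsets and 5650 and 1946 with GC offsets. Total counts moved the median of all regions to -0.15, and GC offsets moved it to 0.07. Relative to the median of all regions, the members' median was higher by 0.079 with TMM, 0.078 with total counts, 0.099 with GC offsets and 0.031 with abundance offsets. Leaving out young sample 1 left 1 higher and 4 lower members (55 and 133 over all regions). Leaving out young sample 2 left 6 and 8 (196 and 250 over all regions). Leaving out aged sample 1 left 5 and 4 (129 and 273), and leaving out aged sample 3 left 7 and 11 (176 and 475). Without aged sample 4 the member counts were 56 and 38 (1630 and 2600 over all regions). Omitting young sample 3 gave 44 and 24 members (1056 and 1595 over all regions). Omitting aged sample 2 gave 43 and 26 members (1454 and 1444 over all regions). Summing aged samples 1 and 3, as if they were the 2 lobules, gave 9 and 13, so the balance turned (269 and 693 over all regions), while samples 2 and 3 gave 24 and 17 and samples 3 and 4 gave 28 and 21. The log2 fold change of each called member kept its sign under the DESeq2, total count, abundance and GC scalings. The call itself was kept by 18 of the 44 higher and all 25 lower members with total counts, and by 7 and 14 with abundance offsets.

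The log2 fold change followed the count level of the region. Among the 330 members with the lowest mean log2 CPM, 2 were called higher and 12 lower, with a median of -0.25. Among the 329 in the middle, 8 were higher and 11 lower, with a median of 0.0020. Among the 329 with the highest level, 34 (10.3%) were higher and 2 lower, with a median of 0.25. All regions in the same 3 ranges of level had medians of -0.26, -0.03 and 0.21, so the trend was not limited to members. In the lowest range 0.398% of all regions were called higher and 5.48% lower, against 0.606% and 3.64% of members. In the middle range the shares were 1.23% and 2.42% of all regions, against 2.43% and 3.34% of members. In the highest range, 7.81% of all regions and 7.25% of protein-coding promoters were called higher, and 0.517% of all regions lower. Spearman's rho between mean log2 CPM and log2 fold change was 0.53 across the 988 members and 0.50 across all 55680 regions, which share the same 7 libraries. Level also went with length, with a rho of 0.80 across members.

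In each library the same pattern was seen in the mean level. The mean log2 CPM of the highest 329 members was 5.24, 5.26 and 5.29 in young samples 1 to 3 and 5.47, 5.45, 5.53 and 5.53 in aged samples 1 to 4. All 4 aged samples were above all 3 young ones. That of the lowest 330 members was 2.16, 2.15 and 2.04 in the young and 1.81, 1.86, 1.81 and 1.92 in the aged samples, all of them below the young ones. Over all 988 members the mean was 3.68 ± 0.0084 over the young (SD, n = 3) and 3.66 ± 0.030 over the aged samples (SD, n = 4), a difference smaller than the spread among the aged samples. Over all regions the mean was 3.37 over the young and 3.26 over the aged samples. The members' mean minus that of all regions was 0.3155 and 0.3986, with all 4 aged samples above the young ones. Minus the mean of protein-coding promoters it was -0.937 and -0.987, with 3 aged samples below all young ones.

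By gene type, 32 of 583 lincRNA promoters were higher and 8 lower, with a median log2 fold change of 0.07. Of 261 antisense promoters, 7 were higher and 14 lower, with a median of -0.0078, and 5 of the 14 lay in a duplicated part of chromosome 5 where values are uncertain. Of 127 promoters of processed transcripts, 5 were higher and 3 lower, with a median of 0.11. None of the 17 sense intronic promoters was called by edgeR or limma voom, DESeq2 called 1, and 4 had an unadjusted p under 0.05. Between protein-coding genes 38 of 747 were higher and 19 lower, and inside a gene on the opposite strand 5 of 205 were higher and 5 lower. Of the 155 members over 100 kb from a protein-coding TSS, 11 were higher and 1 lower, of the 398 at 20 to 100 kb, 19 and 4, of the 288 at 5000 bp to 20 kb, 10 and 15, and of the 147 within 5000 bp, 4 and 5. The 851 members at the 5′ end of a gene record held 41 higher and 20 lower regions, and the 137 at starts of shorter transcripts inside a gene held 3 and 5. The 164 CpG-rich members held 4 higher and 1 lower. Over all members the shares were 4.45% higher and 2.53% lower, and over all regions 2.44% and 3.30%. None of these differences between classes was tested.

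Of the 44 higher members, 42 had every aged sample above every young one, and the log2 fold changes of all 44 ran from 0.42 to 1.33. The 8 largest increases named here and in the next paragraph were taken from these 42, so their lack of overlap follows from the choice. The largest among the 42 was at Lncbate1, a long noncoding RNA known from brown adipose tissue, inside Zfhx3 on the opposite strand (chr8:108583638-108585498). It gave 8.89, 7.71 and 6.41 CPM in young samples 1 to 3 and 10.3, 20.4, 18.9 and 18.2 CPM in aged samples 1 to 4. Its mean was 7.67 ± 1.24 CPM over the young (SD, n = 3) and 16.9 ± 4.54 CPM over the aged samples (SD, n = 4) (log2 fold change 1.11 ± 0.24 (SE), edgeR adjusted p = 0.0204). Aged samples 2 to 4 stood well above the young ones and aged sample 1 only just above them, and the call was kept in 4 of 7 fits that left out 1 sample. The region at Gm32816, chr7:128474326-128474699, gave 3.61, 3.14 and 2.63 CPM in young samples 1 to 3 and 7.64, 6.86, 8.17 and 4.45 CPM in aged samples 1 to 4, with a log2 fold change of 1.09 ± 0.27 (SE, edgeR adjusted p = 0.0357). Aged sample 4 was the lowest of the aged group but above the young samples. The neighbouring Gm40457 promoter, chr7:128499215-128500552, named after its values were seen, had the largest log2 fold change of all called members, at 1.33 ± 0.34 (SE, edgeR adjusted p = 0.0363). It gave 4.63, 3.36 and 2.30 CPM in young samples 1 to 3 and 11.4, 9.22, 10.7 and 4.20 CPM in aged samples 1 to 4, so aged sample 4 was below young sample 1 and the groups overlapped. The calls of Gm32816 and Gm40457 were each kept in 1 of 7 fits that left out 1 sample, and that of Gm32816 was lost with total counts (log2 fold change 0.97, edgeR adjusted p = 0.0518) and kept with abundance offsets (1.34, 0.0314).

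The promoter of 5033403H07Rik, chr5:52993961-52994324, gave 5.18, 5.90 and 9.04 CPM in young samples 1 to 3 and 17.4, 12.4, 14.7 and 10.3 CPM in aged samples 1 to 4 (log2 fold change 1.08 ± 0.24 (SE), edgeR adjusted p = 0.0249). All aged samples were above the young ones, although aged sample 4 came close to young sample 3. Gm15261, an antisense gene inside Arhgap6 on the X chromosome (chrX:169105888-169106776), gave 15.6, 17.1 and 12.99 CPM in young samples 1 to 3 and 28.99, 23.7, 31.98 and 27.1 CPM in aged samples 1 to 4 (log2 fold change 0.86 ± 0.15 (SE), edgeR adjusted p = 0.0120). The groups were well apart, and its call was kept in 6 of 7 fits that left out 1 sample. The AC151478.3 promoter, chr19:44418059-44419902, 10180 bp from a TSS of Scd1, which encodes a fatty acid desaturase, gave 27.3, 29.6 and 24.3 CPM in young samples 1 to 3 and 41.03, 68.5, 34.5 and 44.7 CPM in aged samples 1 to 4 (log2 fold change 0.79 ± 0.19 (SE), edgeR adjusted p = 0.0305). Aged sample 2 was far above the other aged samples, and all 4 were above the young ones. D830013O20Rik (chr12:73408289-73410022) gave 23.2, 36.3 and 23.5 CPM in young samples 1 to 3 and 48.9, 56.9, 48.1 and 39.5 CPM in aged samples 1 to 4, with a log2 fold change of 0.78 ± 0.17 (SE). Young sample 2 lay near aged sample 4, without overlap. At Gm49024, chr14:34661304-34662826, the values were 22.2, 19.9 and 16.4 CPM in young samples 1 to 3 and 31.4, 36.9, 31.5 and 34.4 CPM in aged samples 1 to 4 (log2 fold change 0.77 ± 0.14 (SE), edgeR adjusted p = 0.0123), with a wide gap between the groups and the call kept in 6 of 7 fits. The Gm36041 promoter, chr10:122386610-122388451, averaged 10.2 ± 2.07 CPM over the young (SD, n = 3) and 16.9 ± 2.59 CPM over the aged samples (SD, n = 4), with a log2 fold change of 0.76 ± 0.19 (SE). Leaving out 1 sample kept the calls of 5033403H07Rik, AC151478.3, D830013O20Rik and Gm36041 in 3 of 7 fits each. With offsets from mean abundance the last 3 of these were not called (edgeR adjusted p = 0.135, 0.102 and 0.0608), with log2 fold changes of 0.62, 0.61 and 0.79. Nor were AC151478.3 and Gm36041 with total counts (edgeR adjusted p = 0.0522 and 0.0688), with log2 fold changes of 0.68 and 0.64.

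All 25 lower members had every aged sample below every young one, and most were weak, with a median mean log2 CPM of 2.98 against 5.23 in the higher members. A region entered when it was found in 2 or more libraries, so a weak one could enter through samples of a single age. The part of this rule in the changes was not tested. The largest decrease was at Gm47334, chr9:9563660-9564126, which held 31, 83 and 7 counts in young samples 1 to 3 and 5, 1, 2 and 4 counts in aged samples 1 to 4 (log2 fold change -2.57 ± 0.47 (SE), edgeR adjusted p = 0.0127). These counts are so low in aged liver that the size of the change is poorly known. The 5430431A17Rik region, chr7:44484099-44484477, was similar, with 39, 87 and 9 counts in young samples 1 to 3 and 8, 3, 3 and 5 counts in aged samples 1 to 4 (log2 fold change -2.12 ± 0.40, SE). Gm34728, chr5:77433604-77434639, gave 11.8, 6.58 and 5.92 CPM in young samples 1 to 3 and 1.76, 1.57, 1.63 and 3.44 CPM in aged samples 1 to 4 (log2 fold change -1.91 ± 0.34 (SE), edgeR adjusted p = 0.0117). Young sample 1 was the highest of all 7 samples and aged sample 4 was above the other aged ones, but the groups stayed apart. D330050G23Rik (chr2:116899920-116900479) gave 3.79, 4.95 and 4.11 CPM in young samples 1 to 3 and 1.41, 1.37, 0.934 and 1.66 CPM in aged samples 1 to 4, with a log2 fold change of -1.64 ± 0.30 (SE). Gm36862, a processed transcript whose region, chr12:17553788-17554849, lies 4330 bp from a TSS of Odc1, which encodes ornithine decarboxylase, gave 11.5, 10.9 and 7.40 CPM in young samples 1 to 3 and 3.43, 3.73, 2.33 and 3.56 CPM in aged samples 1 to 4. Its mean was 9.92 ± 2.204 CPM over the young (SD, n = 3) and 3.26 ± 0.631 CPM over the aged samples (SD, n = 4) (log2 fold change -1.60 ± 0.25 (SE), edgeR adjusted p = 0.00765). The highest aged value was far below the lowest young one, and the call was kept in 7 of 7 fits that left out 1 sample. It was kept in 5 of 7 for Gm34728 and in 4 of 7 each for Gm47334, 5430431A17Rik and D330050G23Rik, and that of 5430431A17Rik was lost with offsets from mean abundance (log2 fold change -1.63, edgeR adjusted p = 0.0577).

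Taking the strongest region of each gene, the other 3 of the 8 largest decreases lay in a duplicated part of chromosome 5 that holds Speer genes, a rodent family known from testis. Reads that fit several near-identical copies equally well are removed by a filter on mapping quality or can be misplaced, so these values are uncertain, and the mapping was not tested. Gm43391 had 3 called regions, of which the strongest, chr5:15463413-15464136, gave 15.6, 15.4 and 10.2 CPM in young samples 1 to 3 and 4.48, 5.88, 4.44 and 5.85 CPM in aged samples 1 to 4 (log2 fold change -1.43 ± 0.22 (SE), edgeR adjusted p = 0.00765). The other 2 had larger decreases, with log2 fold changes of -2.02 and -1.78. Speer4cos, chr5:15678275-15681881, gave 33.4, 30.01 and 17.3 CPM in young samples 1 to 3 and 8.17, 8.83, 6.30 and 13.1 CPM in aged samples 1 to 4 (log2 fold change -1.56 ± 0.25 (SE), edgeR adjusted p = 0.00840). Gm30613, chr5:15604589-15605031, held 78, 147 and 23 counts in young samples 1 to 3 and 14, 3, 6 and 18 counts in aged samples 1 to 4, with a log2 fold change of -1.97 ± 0.36 (SE). In all 3 every aged sample was below every young one, as the choice of named decreases required. Leaving out 1 sample kept the calls of Gm43391 and Speer4cos in 7 of 7 fits and that of Gm30613 in 4. From the start of the Gm30613 region to the end of the Speer4cos region, 18 of 19 regions had a near-identical copy and 18 were called lower. Over all members, 25 had such a copy, and of these 1 was higher and 5 lower, which leaves 43 higher and 20 lower among the 963 without one.

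Of the 18 symbols listed for nuclear structure and gene regulation, 13 were annotated with a long noncoding type. In all, 8 genes had a member, at 14 regions. Of the 14, edgeR called 2 higher and 1 lower, against 4.45% and 2.53% of all members and 2.44% and 3.30% of all regions. The median log2 fold change of the 14 was 0.33, and 0.21 with total counts, 0.098 with abundance offsets and 0.43 with GC offsets. The higher ones were at Neat1 and at Trp53cor1, also known as lincRNA-p21, a target of p53 beside the cell cycle inhibitor gene Cdkn1a. The Trp53cor1 promoter, chr17:29078195-29079367, 11609 bp from a TSS of Cdkn1a, gave 13.4, 15.9 and 13.98 CPM in young samples 1 to 3 and 23.8, 27.9, 21.2 and 23.6 CPM in aged samples 1 to 4. The mean was 14.4 ± 1.31 CPM over the young (SD, n = 3) and 24.1 ± 2.75 CPM over the aged samples (SD, n = 4) (log2 fold change 0.73 ± 0.15 (SE), edgeR adjusted p = 0.0182). Every aged sample was above every young one by a clear margin, and the call was kept in 4 of 7 fits that left out 1 sample. A weaker Trp53cor1 member had a log2 fold change of 0.39 (edgeR adjusted p = 0.424). The lower one was Pvt1, a neighbour of the Myc oncogene that also carries microRNAs. Its region chr15:62037427-62039244 gave 17.4, 15.6 and 16.6 CPM in young samples 1 to 3 and 7.55, 7.26, 8.87 and 9.67 CPM in aged samples 1 to 4. The mean was 16.5 ± 0.898 CPM over the young (SD, n = 3) and 8.34 ± 1.132 CPM over the aged samples (SD, n = 4) (log2 fold change -0.99 ± 0.18 (SE), edgeR adjusted p = 0.0120). The young values were close together and all aged ones were far below them, and the call was kept in 5 of 7 such fits. A weaker Pvt1 member, chr15:62222676-62223468, had a log2 fold change of -0.36 (edgeR adjusted p = 0.400).

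Neat1, the RNA scaffold of paraspeckles, had 3 members. The one at the 5′ end of the gene, chr19:5844926-5845951, which also overlaps the TSS window of the long noncoding gene Frmd8os, gave 76.7, 66.9 and 56.2 CPM in young samples 1 to 3 and 100, 85.3, 104 and 130 CPM in aged samples 1 to 4. Its mean was 66.6 ± 10.2 CPM over the young (SD, n = 3) and 105 ± 18.4 CPM over the aged samples (SD, n = 4) (log2 fold change 0.65 ± 0.15 (SE), edgeR adjusted p = 0.0247), and every aged sample was above every young one. That call was kept in 2 of 7 fits that left out 1 sample, and with offsets from mean abundance the log2 fold change was 0.35 (edgeR adjusted p = 0.138). The strongest of the 3, chr19:5828210-5831000, lies at a transcript start inside the gene and gave 79.6, 56.7 and 117 CPM in young samples 1 to 3 and 85.8, 74.5, 95.02 and 187 CPM in aged samples 1 to 4 (log2 fold change 0.41 ± 0.28 (SE), edgeR adjusted p = 0.402). There the groups overlapped widely, with young sample 3 above 3 of the aged samples and aged sample 4 far above all others. The weakest Neat1 member, chr19:5827444-5827923, had a log2 fold change of 0.43 (edgeR adjusted p = 0.199). At Malat1, an abundant RNA of nuclear speckles next to Neat1, the 5′ region chr19:5801614-5804165 gave 70.8, 55.5 and 59.5 CPM in young samples 1 to 3 and 75.1, 65.3, 94.1 and 101 CPM in aged samples 1 to 4 (log2 fold change 0.44 ± 0.15 (SE), edgeR adjusted p = 0.0944), with aged sample 2 below young sample 1. DESeq2 and limma voom did not call it either, and edgeR with GC offsets did (adjusted p = 0.0163). A weak second Malat1 member had a log2 fold change of -0.45 (edgeR adjusted p = 0.353). Dancr, a long noncoding RNA that also hosts a small nucleolar RNA, gave 42.4, 50.2 and 44.4 CPM in young samples 1 to 3 and 65.7, 58.8, 59.3 and 54.2 CPM in aged samples 1 to 4 (log2 fold change 0.38 ± 0.11 (SE), edgeR adjusted p = 0.0645). Its groups did not overlap. It was not called by edgeR or limma voom (adjusted p = 0.0561) and was called by DESeq2 (adjusted p = 0.0345). Lncpint had a log2 fold change of 0.14 at a transcript start inside the gene and -0.16 at its 5′ end (edgeR adjusted p = 0.506 and 0.550), and the former was -0.20 with abundance offsets. Firre and Dnm3os had log2 fold changes of 0.28 and -0.20 (edgeR adjusted p = 0.372 and 0.664), and that of Dnm3os was 0.012 with abundance offsets.

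Of 6 long noncoding genes listed for liver, Platr4, Neat1 and Gm15441 had members. Neat1 is described above, and edgeR also called Platr4. The Platr4 promoter gave 22.6, 21.1 and 21.5 CPM in young samples 1 to 3 and 29.2, 32.6, 37.4 and 30.8 CPM in aged samples 1 to 4, or 21.7 ± 0.784 CPM over the young (SD, n = 3) and 32.5 ± 3.54 CPM over the aged samples (SD, n = 4) (log2 fold change 0.57 ± 0.13 (SE), edgeR adjusted p = 0.0264). The young samples were close together and all aged ones stood above them, but the call was kept in 3 of 7 fits that left out 1 sample, and it was lost with total counts and abundance offsets (log2 fold changes 0.45 and 0.46, edgeR adjusted p = 0.0576 and 0.0947). A weaker Platr4 member had a log2 fold change of 0.32 (edgeR adjusted p = 0.476). Gm15441, antisense to Txnip, gave 3.61, 4.91 and 10.8 CPM in young samples 1 to 3 and 5.97, 6.67, 5.84 and 3.44 CPM in aged samples 1 to 4 (log2 fold change -0.18 ± 0.35 (SE), edgeR adjusted p = 0.795), and young sample 3 was the highest and aged sample 4 the lowest of the 7. Its sign turned with abundance offsets (0.043), limma voom (0.013) and a replicate block (0.13). Of the 21 developmental genes, 19 of them annotated with a long noncoding type, only Hnf4aos had a member. This antisense gene lies at Hnf4a, which encodes a transcription factor that maintains hepatocyte identity. Its region chr2:163537621-163542093 gave 125, 134 and 115 CPM in young samples 1 to 3 and 157, 150, 192 and 212 CPM in aged samples 1 to 4 (log2 fold change 0.51 ± 0.13 (SE), edgeR adjusted p = 0.0410). All aged samples were above the young ones, but the call was kept in 1 of 7 fits that left out 1 sample. With abundance offsets the log2 fold change was 0.12 (edgeR adjusted p = 0.572), and the call was also lost with total counts (log2 fold change 0.39, edgeR adjusted p = 0.0588) and with a replicate block (edgeR adjusted p = 0.0981). The Hnf4a promoter region had a log2 fold change of 0.25 (edgeR adjusted p = 0.146).

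Host genes of small RNAs are processed so that a nucleolar RNA or microRNA is released from the transcript. Of 31 genes listed under this heading, 29 were annotated with a long noncoding type and 15 had a member, at 17 regions in all. Whether each listed gene hosts a small RNA was not checked. None of the 17 was called by edgeR, DESeq2 or limma voom, and 2 had an unadjusted edgeR p under 0.05. Over all regions edgeR called 2.44% higher and 3.30% lower, and 13699 of 55680 had an unadjusted p under 0.05, so few calls would be met in a list of this size at the overall share. Their log2 fold changes ran from -0.39 at a transcript start inside Dleu2 to 0.35 at Snhg8. The median was 0.069, and -0.049 with total counts, -0.087 with abundance offsets and 0.16 with GC offsets, so its sign rested on the scaling. Total counts gave a call at that Dleu2 region, and GC offsets gave one at Snhg8. Snhg8 gave 75.8, 69.1 and 55.9 CPM in young samples 1 to 3 and 96.9, 80.4, 82.2 and 82.98 CPM in aged samples 1 to 4 (log2 fold change 0.35 ± 0.12 (SE), edgeR adjusted p = 0.102). Its aged samples were all above the young ones. Snhg15 gave 35.2, 34.7 and 32.6 CPM in young samples 1 to 3 and 34.9, 33.1, 35.95 and 33.6 CPM in aged samples 1 to 4, with a log2 fold change of 0.01 ± 0.11 (SE), and its groups lay on top of each other. Mir142hg and Mir155hg, hosts of microRNAs of blood cells, were also on the immune list with Malat1 and Neat1. Of the 7 members of these 4 genes, only the 5′ member of Neat1 was called, by edgeR, DESeq2 and limma voom. Mir155hg gave 3.42, 4.38 and 3.12 CPM in young samples 1 to 3 and 3.43, 3.92, 1.63 and 2.67 CPM in aged samples 1 to 4, and the groups overlapped.

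Imprinted genes are expressed from 1 parental allele, and X inactivation silences 1 X chromosome in female cells. Of 14 long noncoding genes listed for both, 5 had a member, at 7 regions in all, and none of the 7 was called by edgeR, DESeq2 or limma voom, with 0 at an unadjusted p under 0.05, against the same shares over all regions. Kcnq1ot1, which silences neighbouring genes on the paternal chromosome, gave 24.5, 24.8 and 24.3 CPM in young samples 1 to 3 and 26, 29.4, 30.4 and 30.2 CPM in aged samples 1 to 4 (log2 fold change 0.23 ± 0.12 (SE), edgeR adjusted p = 0.264). Airn, which silences Igf2r, gave 6.48, 5.33 and 5.26 CPM in young samples 1 to 3 and 4.92, 4.90, 4.20 and 3.44 CPM in aged samples 1 to 4 (log2 fold change -0.38 ± 0.24 (SE), edgeR adjusted p = 0.355). In both the groups did not overlap, Kcnq1ot1 being higher and Airn lower in the aged samples, but neither was called, and over all regions 10.2% had every aged sample above and 11.6% every aged sample below the young ones. Peg13, inside Trappc9, had a log2 fold change of 0.21. Jpx and Ftx, which act on Xist, had values of -0.22 and 0.23 at their strongest members and 0.10 and 0.35 at their weaker ones.

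The 6 members with the highest mean log2 CPM were at B230206L02Rik, AI480526, D630033O11Rik, Hnf4aos, 2410080I02Rik and Zswim6, the last annotated in this release as a processed transcript. These regions are long, and per kb their levels were 39.6, 42.2, 34.4, 34.6, 38.7 and 55.4 CPM in that order. The Zswim6 region had a GC content of 71.4% and an observed to expected CpG ratio of 0.96. The medians were 50.4% and 0.307 in members and 58.0% and 0.673 at protein-coding TSSs. Zswim6 is a member by its annotated type only, and whether it is noncoding was not tested. B230206L02Rik gave 199, 191 and 180 CPM in young samples 1 to 3 and 222, 213, 268 and 275 CPM in aged samples 1 to 4 (log2 fold change 0.37 ± 0.12 (SE), edgeR adjusted p = 0.0851). D630033O11Rik gave 148, 143 and 142 CPM in young samples 1 to 3 and 148, 182, 212 and 208 CPM in aged samples 1 to 4 (log2 fold change 0.37 ± 0.13 (SE), edgeR adjusted p = 0.0964). In both every aged sample was above every young one, aged sample 1 of D630033O11Rik by a small margin. Neither was called by edgeR, DESeq2 called both (adjusted p = 0.0330 and 0.0495) and limma voom called B230206L02Rik (adjusted p = 0.0451). 2410080I02Rik gave 147, 146 and 110 CPM in young samples 1 to 3 and 135, 118, 168 and 201 CPM in aged samples 1 to 4 (log2 fold change 0.21 ± 0.17 (SE), edgeR adjusted p = 0.477), with wide spread in the aged group and overlap with the young one. AI480526, whose region also overlaps TSS windows of the long noncoding genes 4932422M17Rik and Gm38102, and Zswim6 had log2 fold changes of 0.31 and 0.18, with every aged sample above every young one. With offsets from mean abundance the log2 fold change was below 0 in 5 of the 6, all but Hnf4aos, and their median moved from 0.34 to -0.086. With GC offsets edgeR called 5 of the 6, all but 2410080I02Rik, against 1 with TMM and 0 with total counts or abundance offsets. DESeq2 called 3 of the 6 and limma voom 2. Over all regions GC offsets gave 5650 higher and 1946 lower calls. Of the 13347 regions in the highest range of level, DESeq2 called 2227 and limma voom 1793.

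For each called member the region at the nearest protein-coding TSS within 100 kb was looked up in the same fit. Of the 44 higher members, 22 had such a region, with a median log2 fold change of 0.35, and 4 of these were called higher and 0 lower. These 4, named after their values were seen, were Scd1 beside AC151478.3 (1.08, edgeR adjusted p = 0.0143), Sdr42e1 beside Gm31717 (0.64, 0.0204), Zfp809 beside 1810064F22Rik (0.47, 0.0382) and Bag3 beside Gm40457 (0.42, 0.0323). Of the 25 lower members, 9 had one, at 7 distinct regions, of which 2 were called lower and 0 higher. The 2 were Gm21149 in the duplicated part of chromosome 5 beside Gm43391, and Prodh2 beside Arhgap33os (-1.14, edgeR adjusted p = 0.0119). Arhgap33os itself gave 16.9, 11.7 and 14.8 CPM in young samples 1 to 3 and 7.38, 7.84, 6.54 and 7.89 CPM in aged samples 1 to 4 (log2 fold change -0.95 ± 0.19 (SE), edgeR adjusted p = 0.0175), with all aged samples below the young ones. Myc, beside Pvt1, had a log2 fold change of 0.19 (edgeR adjusted p = 0.368). Over all 988 members, 444 had such a region. Of the distinct protein-coding regions near them, 26 of 395 were called higher and 5 lower, against 4.54% and 1.82% of all protein-coding promoters.

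Short motifs were searched on both strands in the 300 bases around the long noncoding TSS, and in windows of the same length at the 13711 protein-coding TSSs. The TATA box (TATAAA) was in 11.4% of members and 4.73% of protein-coding windows, and the GC box (GGGCGG) in 23.7% and 61.9%. The CCAAT box (CCAAT) was in 34.1% and 31.7%, the E box (CACGTG) in 7.996% and 8.402%, and the ETS motif (CCGGAAGT) in 2.83% and 6.42%. The forkhead motif (TGTTTAC) was in 5.36% and 2.10%, and the AP-1 motif (TGACTCA) in 6.98% and 3.11%. The cAMP response element (TGACGTCA) was in 1.22% and 2.47%, CAAAGTCCA, part of an HNF4 motif, in 1.11% and 0.496%, and the C/EBP motif (TTGCGCAA) in 0.202% and 0.233%. The TATA box was in 6 of 44 higher and 4 of 25 lower members, and the forkhead motif in 3 and 0. The CCAAT box was in 11 and 8, the GC box in 8 and 5, and the E box in 6 and 4. The AP-1 motif was in 3 and 1 and the cAMP response element in 0 and 1. The HNF4, C/EBP and ETS motifs were in 0 and 0. No difference from all members was tested. A match describes the letters only.

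Sequences are shown for 2 higher members at genes with a known role and for the lower member Gm36862, which kept its call with each sample left out, all chosen after their values were seen. Each is 300 bases of GRCm38 around the TSS, read 5′ to 3′ on the strand of the gene, and capitals mark the motifs above on either strand. The Neat1 window, chr19:5845326-5845625 on the minus strand, holds TATAAA 33 bases before the TSS and again after it, and the GC box on the other strand.
Neat1: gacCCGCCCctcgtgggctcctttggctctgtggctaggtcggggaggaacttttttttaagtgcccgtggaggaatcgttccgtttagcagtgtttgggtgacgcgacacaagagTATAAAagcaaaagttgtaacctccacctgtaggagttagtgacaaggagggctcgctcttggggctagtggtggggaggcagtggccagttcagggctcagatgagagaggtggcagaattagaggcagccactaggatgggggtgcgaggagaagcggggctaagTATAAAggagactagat
Trp53cor1, chr17:29079029-29079328 on the minus strand, holds none of the 10 motifs.
Trp53cor1: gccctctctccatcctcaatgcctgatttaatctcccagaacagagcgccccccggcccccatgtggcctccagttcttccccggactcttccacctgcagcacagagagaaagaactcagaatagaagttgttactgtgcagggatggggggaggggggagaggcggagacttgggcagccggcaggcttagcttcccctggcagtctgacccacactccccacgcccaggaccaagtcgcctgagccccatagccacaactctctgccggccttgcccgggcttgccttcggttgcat
Gm36862, chr12:17553618-17553917 on the plus strand, holds none of them either, and its accessible region starts just after the TSS.
Gm36862: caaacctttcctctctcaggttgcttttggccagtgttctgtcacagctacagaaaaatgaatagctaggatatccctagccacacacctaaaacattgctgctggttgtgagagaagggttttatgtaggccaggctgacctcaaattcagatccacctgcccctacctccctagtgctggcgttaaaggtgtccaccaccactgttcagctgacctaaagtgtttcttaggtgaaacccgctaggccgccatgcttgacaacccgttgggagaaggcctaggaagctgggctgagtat

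The limit of 1000 bp fell between members at Gm17134 (1007 bp from a TSS of Plppr3), Gm13840 (1065 bp, Pxn) and Kif16bos (1088 bp, Kif16b), and regions left out at 985 bp from Mamstr and 979 bp from Irx5. The log2 fold changes inside were -1.12, 0.04 and 0.22, and those outside were 0.40 and 0.05 in the same order.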

How the data were processed

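Per the study's methods, reads were trimmed with cutadapt 1.13 and aligned to GRCm38 with Bowtie2 2.4.1, reads of low mapping quality and duplicate and mitochondrial reads were dropped, MACS2 2.2.7 was run on each library, and featureCounts counted reads over regions found in 2 or more libraries. The deposited values are raw counts. All 55680 regions of the 7 samples entered 1 edgeR 4.0.16 quasi-likelihood fit (R 4.3.3) with TMM and age as the only factor, and p-values were adjusted by Benjamini-Hochberg over all regions, with a threshold of 0.05. The test was checked on simulated counts. CPM used TMM library sizes and log2 CPM a prior count of 2. DESeq2 1.42.0, limma voom 3.58.1 and other scalings, filters, member rules and sample sets were alternatives. Near-identical copies were found with minimap2 2.31 (80% of a region at 95% identity). Counts of same-age libraries differed beyond sampling noise (chi-square per degree of freedom 2.38 to 6.06).

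Members named are the 8 largest log2 fold changes in each direction among those called with no overlap between groups, the 6 with the highest mean log2 CPM, and members of 6 gene lists, with the strongest region where a gene had several. Members and lists were chosen with earlier results of these data known.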

Additional observations from a re-analysis of the deposited data

Results flagged for a closer look

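In 3 of 55 sets of 4 aged values tested, 1 sample lay far from the other 3, and chance gives about 1 in 20. At Gm34728, aged sample 4 had a log2 CPM of 1.86, against 0.82 to 0.96 in the other aged samples and at least 2.61 in the young ones. At Lncbate1, aged sample 1 had 3.39, against 4.20 to 4.36 in the other aged samples and at most 3.18 in the young ones. At Snhg8, aged sample 1 had 6.60, against 6.33 to 6.38 in the other aged samples and at most 6.25 in the young ones.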

How the results depend on the processing

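The counts of members higher and lower, 44 and 25 with the settings of the report, were 77 and 28 with DESeq2, 63 and 33 with limma voom, 18 and 40 with total counts, 8 and 15 with offsets from mean abundance, 167 and 23 with offsets from GC content, and 23 and 14 among the 888 members with at least 10 counts in every sample. At an adjusted p under 0.01 they were 0 and 3 with edgeR (34 and 14 with DESeq2, 0 and 2 with limma voom), while 182 and 96 had an unadjusted edgeR p under 0.05. With the region midpoint inside the window, 17 and 7 of 465 members were called. Leaving out 1 sample gave 1 to 56 higher and 4 to 38 lower members, and medians of 0.030 to 0.076. Over all regions these omissions gave 55 to 1630 higher and 133 to 2600 lower. Summing aged samples 1 and 3, as if they were the 2 lobules of 1 animal, gave 9 and 13 members. Samples 2 and 3 gave 24 and 17, and samples 3 and 4 gave 28 and 21. For the other 3 pairs both counts stayed within 1.5 times. The median of 0.044 became -0.075 with total counts, 0.169 with GC offsets and 0.0041 with a window of 1000 bp. It was 0.077 with DESeq2 and 0.0255 with aged samples 2 and 4 summed. Other member rules and filterByExpr changed no count by over 1.5 times. A prior count of 0.5 was run for 1 named result only, which stayed the same. The cause of these changes was not tested. Sample numbers did not pair the samples (correlations of same-numbered deviations -0.12, 0.06 and 0.03), and a replicate block gave 55 higher and 40 lower members and a median of 0.026. Aged sample 3 had the lowest total, with a median of 53 counts per member, and the part of depth in the calls was not tested.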
